A study of Mus musculus with 2 samples.

Results

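The genes of the proteasome were followed in double-positive (DP) thymocytes, the CD4+CD8+ T-cell precursors of the thymus, in a library labelled WT and a library labelled Cxxc1 KO. Members were all rows of the expression table whose symbol begins with Psm, one letter from a to g and a digit. This rule took 50 of 21041 genes, and all 50 are accounted for here. They comprise 8 alpha subunits and 7 constitutive beta subunits of the 20S core, 3 beta subunits of the immunoproteasome, 1 of the thymoproteasome, 6 ATPases and 11 further subunits of the 19S cap, 6 activator or inhibitor genes and 7 assembly chaperones. The last row, Psmc3ip, matches the letters but encodes a meiotic recombination factor and no part of the proteasome.

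Messenger RNA was sequenced from 1 library of WT and 1 library of Cxxc1-deficient DP thymocytes. Cxxc1 encodes a CXXC zinc finger protein that binds unmethylated CpG DNA and is part of the Setd1 complexes, which trimethylate histone H3 at lysine 4. WT mice were Cxxc1 fl/fl without Cre, and the deficient mice were Cxxc1 fl/fl hCD2-Cre according to the study's methods, with Cre active in early thymocytes and in other immune cells, whereas the genotype label of that sample reads Cxxc1+/-. The floxed mice had been backcrossed to C57BL/6. By the study's methods both genotypes shared the floxed alleles, which the label does not bear out, and the number of animals behind each library is not given in the sources used here. With 1 library per genotype, no difference below has a replicate check or a test, and every ratio compares these libraries and not the genotypes.

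The proteasome degrades proteins that carry ubiquitin chains. Its 20S core is a barrel of stacked rings, in which alpha subunits form the outer rings and gates and beta subunits form the inner rings with the proteolytic sites. The 19S cap binds ubiquitin chains, removes them, and unfolds substrates with a ring of ATPases. In lymphoid cells, and in other cells after interferon-gamma, the catalytic beta subunits are replaced by the immunoproteasome subunits encoded by Psmb8, Psmb9 and Psmb10, which favour peptides that fit MHC class I molecules. Cortical thymic epithelial cells, which present peptides to DP thymocytes for positive selection, carry Psmb11 in place of Psmb5 or Psmb8 and so form the thymoproteasome.

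The deposited values are normalized expression values in whole numbers, with a unit that the sources used here do not name and no read counts, so the depth and the counting error are unknown. Values of different genes were not read as relative amounts, because a correction for transcript length is not stated. The values summed to 1551994 for the WT library and 981677 for the Cxxc1-deficient one, while the median gene was at 36 in both. Cxxc1 itself was at 91 in WT and at 50 in the deficient library, a ratio of 0.549. That ratio became 1.10 when both libraries were given an equal median across the genes whose mean was at least 100, which is called the high-level scaling below. The name Cxxc1-deficient therefore follows the title and the study, and a loss of the transcript is not shown by this table, which gives no value for the deleted exons alone. In separate assays of DP cells, the study reported Cxxc1 mRNA as nearly undetectable by quantitative PCR and the protein as lost by western blot. The 1122 olfactory receptor genes, which serve sensory neurons of the nose, had a median of 22 in WT and 24 in the deficient library and 95th percentiles of 54 and 57. Those percentiles are used below as the level that genes foreign to thymocytes reached in this table. Of the sex-linked genes, Ddx3y, Eif2s3y, Kdm5d and Uty were at 0 in WT and at 17 to 67 in the deficient library, and Xist was at 2419 and 1021. Of the Y-linked genes, only Eif2s3y, at 67, exceeded the olfactory percentile of the deficient library. Y-linked RNA was thus listed in the deficient library alone, but beside Xist, so these values do not assign that library to a single sex. Sex and genotype cannot be told apart.

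Of the 10 DP thymocyte markers, including Cd4, Cd8a and Rag1, all were lower in the Cxxc1-deficient library as deposited, with summed values of 38439 and 10409. Under the high-level scaling, 8 of these markers stayed lower and 2 turned higher. All 10 lay above the olfactory percentile in WT and 9 did in the deficient library, so the labelled cell type was present in both. All 6 markers of the preceding CD4-CD8- stage were higher in the deficient library, with sums of 223 and 430, led by Il2ra at 63 and 207. Only 1 of these 6 exceeded the olfactory percentile in WT and 2 did in the deficient library, and of all genes with a mean under 50, as 5 of the 6 had, 6787 of 13996 were higher. The study sorted thymocyte populations by flow cytometry, a step that would remove CD4-CD8- cells, but the isolation of the cells for these libraries is not described in detail. A larger share of earlier cells, fewer DP cells and less proteasome RNA per cell cannot be told apart in such bulk samples, and the part of these markers in the results below was not tested.

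The reads behind the table were uniquely mapped, and many proteasome genes have processed copies elsewhere in the mouse genome, so the uniqueness of each member's sequence is given before its values. For every member, all 50-base windows of its annotated exons were compared with the whole mm9 genome at up to 2 mismatches, and the share of windows found at a single place was taken. In 35 members this share was at least 80%, and in 27 of them it was 100%. The 8 members with a share under 50% had WT values of 0 to 48, and none of them exceeded the olfactory percentile. By contrast, 22 of the 27 members with only single-place windows exceeded it, with a median WT value of 109. When only identical copies were counted, the single-place share of the 8 ranged from 43.0% (Psmb3) to 81.2% (Psmc1). The number of mismatches that the authors' mapping allowed is not given in the sources used here.

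**Figure D1:**
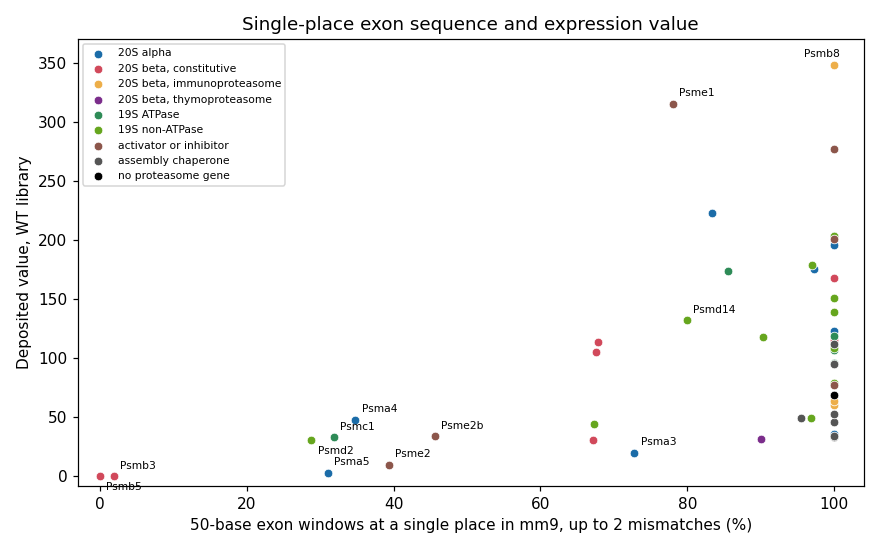
The deposited WT value of each of the 50 rows (vertical axis, normalized value) is plotted against the percentage of its 50-base exon windows that occur once in mm9 at up to 2 mismatches (horizontal axis), with 1 point per gene coloured by group. The 8 genes under 50% sit between 0 and 48, and Psmb3 and Psmb5 sit at 0.

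Psmb5 and Psmb3, which encode a catalytic and a structural beta subunit of every constitutive core, were listed at 0 in both libraries. For Psmb5, 0.0% of windows had a single place at up to 2 mismatches and 45.2% when only identical copies were counted. For Psmb3 these shares were 1.9% and 43.0%, for Psmd2 28.8% and 72.6%, and for Psme2 39.3% and 55.3%. Stretches of coding exon that occur letter for letter at another place are shown for 4 of the least unique members, since a 50-base read from them has no single origin. They are read 5′ to 3′ on the gene's strand of NCBIM37 (mm9), in lower case throughout, because every letter is shared with the copy. Psmb5 is at chr14:55233165-55233318 (minus strand) with its copy at chr7:3181600-3181753 (plus strand), Psmb3 at chr11:97572461-97572552 (plus) with chr8:91711027-91711118 (minus), Psmd2 at chr16:20654913-20655052 (plus) with chr10:30968459-30968598 (plus), and Psme2 at chr14:56206491-56206577 (minus) with chr11:48758982-48759068 (minus).
Psmb5: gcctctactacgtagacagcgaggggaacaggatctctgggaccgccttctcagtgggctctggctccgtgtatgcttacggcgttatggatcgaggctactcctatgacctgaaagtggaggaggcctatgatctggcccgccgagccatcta
Psmb3: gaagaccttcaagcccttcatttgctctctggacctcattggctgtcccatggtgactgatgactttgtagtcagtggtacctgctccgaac
Psmd2: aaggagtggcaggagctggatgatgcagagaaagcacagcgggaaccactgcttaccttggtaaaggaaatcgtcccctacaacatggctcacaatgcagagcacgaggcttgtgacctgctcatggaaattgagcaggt
Psme2: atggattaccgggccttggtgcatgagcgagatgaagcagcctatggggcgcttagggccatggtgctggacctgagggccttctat

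The identical runs measure 154 bases in Psmb5, 92 in Psmb3, 140 in Psmd2 and 87 in Psme2. The copy of Psme2 lies inside Psme2b (chr11:48758856-48759692), itself a member, so reads from this pair were open to loss in both genes. Psme2 was at 10 in WT and listed at 0 in the deficient library, and Psme2b was at 34 and 49. The listed zeros and low values of these members can therefore not be read as the levels of their transcripts, and Gapdh, with 17.1% of its windows at a single place, is a familiar gene of the same kind.

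Across the members, 48 of 50 had a value above 0 in at least 1 library. Of these 48, 45 were lower in the Cxxc1-deficient library as deposited and 3 were higher. Over all 20125 genes above 0 in at least 1 library, 59.9% were lower. At least 2-fold lower were 24 members, beside 17.4% of all genes, and at least 2-fold higher were 0 members, beside 5.89% of all genes. The median log2 ratio (Cxxc1-deficient over WT, each value raised to at least 1) was -0.99 for the members, with -1.01 to -0.95 allowed by the rounding of the values, and -0.20 for all genes. These counts depend on how the libraries are set against each other. Under the high-level scaling, 24 members were lower, with a median of 0.00, beside 3502 of the 20125 genes, with a median of 0.79. That scaling multiplies the deficient values by 2.0, so the genes lower under it are those at least 2-fold lower as deposited. The same holds for every group and list described here, where both counts are the same cut and not separate checks.

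The median ratio of genes differed with their level in this table, so members were also read against genes of their own level. Of all genes with a mean of the libraries of at least 100, 95.2% were lower and 56.8% were at least 2-fold lower, with a median log2 ratio of -1.08. The 14 members of that level were all lower as deposited, 10 of them (71.4%) at least 2-fold, with a median of -1.38. The difference of these medians, -0.30, does not move when a whole library is rescaled for the same genes. From 50 to under 100, 82.6% of all genes were lower and 20% (733 of 3657) at least 2-fold lower, with a median of -0.53, whereas all 15 members were lower as deposited and 9 (60.0%) were at least 2-fold lower, with a median of -1.13. Under 50, where 47.8% of all genes were lower and 9.75% at least 2-fold lower, 16 of 19 members were lower and 5 (26.3%) at least 2-fold lower, with medians of 0.00 for all genes and -0.44 for members. No member of any level was at least 2-fold higher as deposited, where 0.485% of genes from 100, 0.656% of genes from 50 to under 100 and 8.22% of genes under 50 were. The shares given here by level are the background for the counts of each group below. A level includes the deficient value, so a gene with a low one is set beside genes of lower WT value. From 50 to under 100, the median WT value was 109 for members and 77 for all genes, so that background is not matched for WT level.

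**Figure D2:**
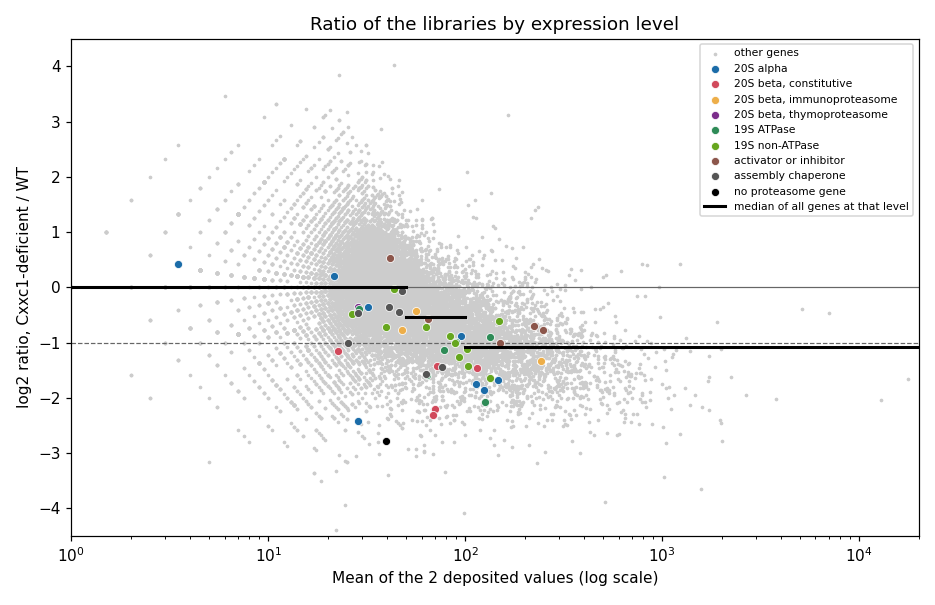
Each gene above 0 in both libraries is a point, with the mean of the WT and Cxxc1-deficient values on the horizontal axis (log scale) and the log2 ratio, Cxxc1-deficient over WT, on the vertical axis. Proteasome genes are coloured by group, and the black segments are the medians of all genes under 50 (0.00), from 50 to under 100 (-0.53) and from 100 (-1.08), with most proteasome genes from 50 upward lying below the segment of their level.

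Against the olfactory percentile, 31 members lay above it in WT, beside 6290 of all 21041 genes. In the deficient library 14 members did, and these 14 were above it in both. Of the 6290 genes, 5873 were lower in the deficient library as deposited, as were all 31 members. How many of all genes passed from above the percentile to below it was not counted, so that passage has no background here or in the groups below. The other 17 members of the 31 had values in the deficient library that olfactory receptor genes also reached, and 19 members did not exceed the percentile in either library. Restricting the members to the 35 with at least 80% single-place windows left 35 of 35 lower as deposited and 18 at least 2-fold lower. The share of all genes under that restriction was not computed. These 35 also had a higher level, with a median WT value of 112, beside 33 for the members left out. All 3 members that were higher, Psma3, Psma5 and Psme2b, were among the 15 members under 80%.

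The 20S alpha subunits form the outer rings of the core, and 6 of 8 were lower in the Cxxc1-deficient library as deposited, 4 of them at least 2-fold, whereas 4 were lower and 4 higher under the high-level scaling. Psma2 (chr13:14705521-14719674 in mm9) was at 223 in WT and at 70 in the deficient library, a ratio of 0.314. Psma6 was at 175 and 52 (0.297) and Psma7 at 196 and 54 (0.276). Their median log2 ratio was -1.75, beside -1.08 for all genes with a mean of at least 100. These 3 subunits, each with at least 83.3% single-place windows, were far above the olfactory percentile in WT, and in the deficient library Psma6 and Psma7 were below it. Psma1 was at 123 and 67, a ratio of 0.545, and was among the 14 members above the percentile in both libraries.

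The remaining alpha subunits had low values. Psma4 was at 48 and 9 (0.188), the lowest ratio of any subunit above 0 in both libraries, but with 34.8% single-place windows and an exon overlap of 7.7% with AY074887 on the opposite strand. Psma3 was at 20 and 23 with 72.8% single-place windows, and Psma5 at 3 and 4 with 31.1%. Psma8, which encodes the alpha subunit of the testis proteasome and replaces Psma7 in germ cells, was at 36 and 28 and stayed under the olfactory percentile in both libraries. The alpha subunits above the olfactory percentile in WT thus stood at ratios of 0.276 to 0.545, with Psma6 and Psma7 below it in the deficient library. The other alpha subunits did not exceed it in either library.

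The constitutive beta subunits were the proteasome group with the lowest median log2 ratio, -1.46, and the 5 of 7 with values above 0 were all at least 2-fold lower as deposited. They were also lower in all other scalings tried, with a median of -0.46 under the high-level scaling. Psmb4, a structural subunit, was at 115 in WT and 25 in the deficient library (ratio 0.217, all windows at a single place). Psmb6, the constitutive caspase-like catalytic subunit, was at 114 and 23 (0.202), and Psmb7, the trypsin-like catalytic subunit, at 105 and 39 (0.371). These 3 genes had a median log2 ratio of -2.20, beside -0.53 for all genes with a mean from 50 to under 100. Their low deficient values put them in that level, with WT values of 105 to 115. For all genes with a mean of at least 100 the median was -1.08. Both catalytic genes had windows at a single place in 67.9% and 67.6% of cases, and in the deficient library neither they nor Psmb4 exceeded the olfactory percentile of 57. Psmb2, a structural subunit with unique sequence, was at 168 and 61 (0.363) and did exceed it. Psmb1, also structural, was at 31 and 14, below the percentile in both, with 67.1% single-place windows.

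The median ratio of the immunoproteasome subunits was closer to 1 than that of the constitutive ones. Psmb8 (chr17:34334666-34338399), the chymotrypsin-like subunit that takes the place of Psmb5, was at 348 in WT and 138 in the deficient library, a ratio of 0.397. Psmb9 (chr17:34318932-34324709), the counterpart of Psmb6 next to Psmb8 in the MHC region, was at 60 and 35 (0.583). Psmb10, the counterpart of Psmb7, was at 64 and 48 (0.75). All 3 were lower as deposited with a median log2 ratio of -0.78, but 2 were higher and 1 lower under the high-level scaling, where the median was 0.22. The log2 ratio of Psmb8 was -1.33, beside -1.08 for all genes with a mean of at least 100. Psmb10 was at -0.42, beside -0.53 from 50 to under 100, and Psmb9 at -0.78, beside 0.00 under 50. The mean of Psmb9, 47.5, lay just under the cut of 50, so the 0.00 is a loose background for it. All genes above the olfactory percentile in WT, as Psmb9 was, had a median of -0.81. The part of expression level in the difference from the constitutive subunits was not tested. All windows of these genes had a single place, and Psmb8 was above the olfactory percentile in both libraries while Psmb9 and Psmb10 were above it in WT alone.

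A quotient of genes within a library is free of library scaling, so the exchangeable catalytic pairs were also compared in this way. The value of Psmb9 divided by that of Psmb6 was 0.526 in WT and 1.52 in the deficient library, a 2.89-fold difference with 2.75 to 3.04 allowed by rounding. The value of Psmb10 divided by that of Psmb7 was 0.61 and 1.23, a 2.02-fold difference with 1.95 to 2.09 allowed by rounding. In both pairs the immunoproteasome gene therefore stood higher against its constitutive counterpart in the deficient library, although all 4 genes lay under the olfactory percentile there. The third pair, Psmb8 with Psmb5, could not be formed because Psmb5 was listed at 0. Within the immunoproteasome, Psmb8 divided by Psmb10 went the other way, from 5.44 in WT to 2.88, so the 3 genes did not keep 1 ratio.

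Reads from the exons of Psmb9 cannot all be told from those of Tap1, which runs on the opposite strand and shares 212 bases (12.6% of Psmb9 exon sequence), because strand-specific counting is not stated. Tap1, a subunit of the peptide transporter that feeds MHC class I, was at 69 and 60. Psmb8 shares 187 bases (11.2%) with Gm20496 in the same manner.

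Psmb11 marks cortical thymic epithelium rather than thymocytes, and it was at 32 in WT and 25 in the deficient library, under the olfactory percentile in both. Its log2 ratio of -0.36 changed sign under 3 of the scalings (same 75th percentile, same sum without the top 100 genes, and the high-level scaling). Of the 12 thymic epithelium markers, with sums of 361 and 333, only Ccl25 exceeded the percentile in WT (65, with 26 in the deficient library), and Krt8 was at 4 and 0. Thymoproteasome transcripts were thus not detectable above the level of olfactory receptor genes in these libraries.

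**Figure D3:**
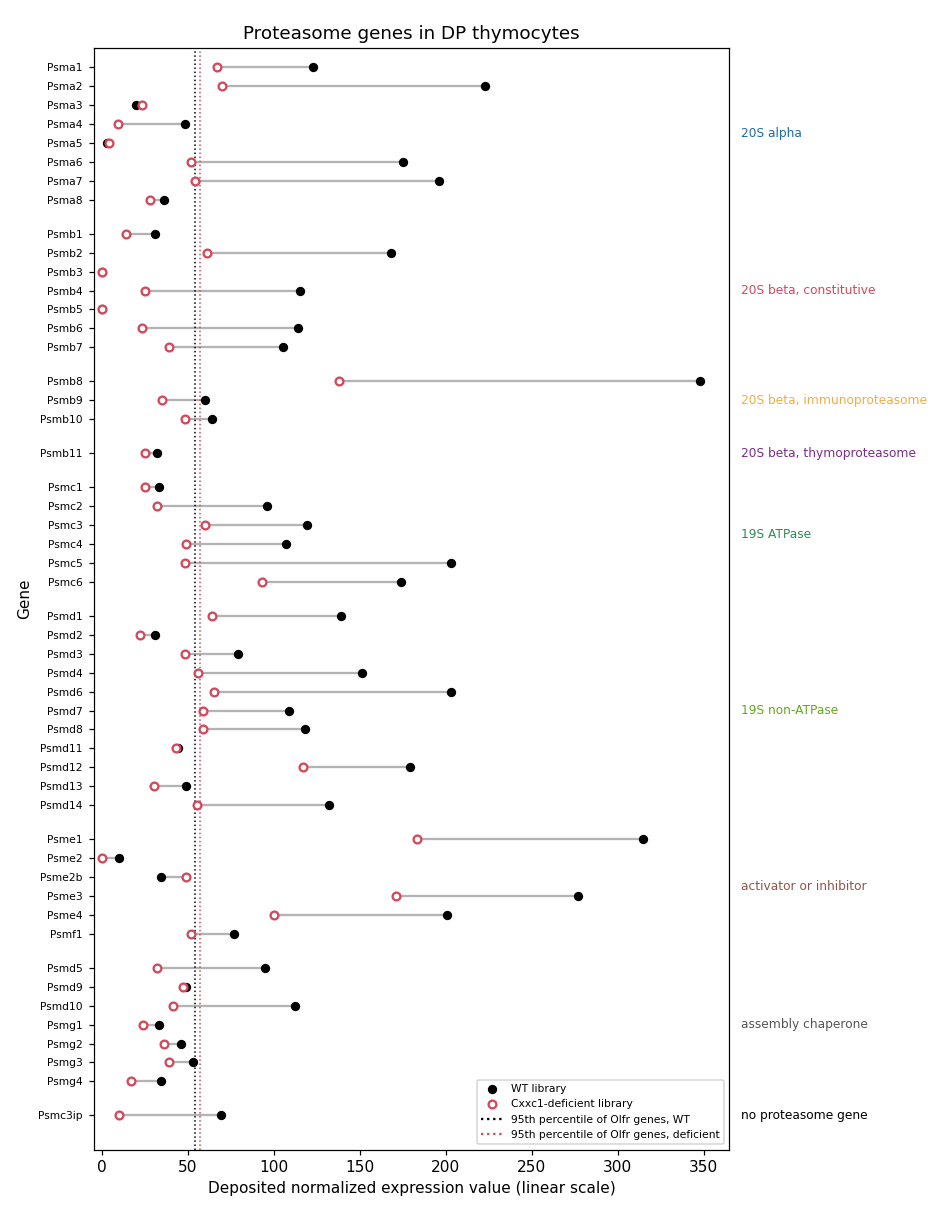
The deposited values of all 50 rows (horizontal axis, linear scale from 0) are drawn for the WT library (filled) and the Cxxc1-deficient library (open), 1 gene per line and ordered by group, with dotted lines at the 95th percentiles of olfactory receptor genes (54 and 57). In 45 rows the open point lies to the left of the filled one as deposited (24 under the high-level scaling), and 17 genes cross from above the line in WT to below it. How many of all genes cross was not counted, so the 17 have no background.

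The 19S ATPases form the ring that unfolds substrates and opens the gate of the core, and all 6 were lower in the deficient library as deposited, 3 of them at least 2-fold, with a median log2 ratio of -1.06. Under the high-level scaling, 3 were lower and 3 higher. The 2 ATPases whose mean reached 100 had a median of -1.49, beside -1.08 for all genes of that level, and the 3 from 50 to under 100 had -1.13, beside -0.53. Psmc5 was at 203 in WT and 48 in the deficient library (0.236), and Psmc2 at 96 and 32 (0.333). Psmc4 was at 107 and 49, a ratio of 0.458. These 3 had unique sequence, and each passed from above the olfactory percentile in WT to below it.

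Psmc3 was at 119 and 60 (0.504) and Psmc6 at 174 and 93 (0.534), and both exceeded the percentile in both libraries. Psmc3 shares 215 exon bases (10.5%) with Slc39a13 on the opposite strand, which was at 58 and 60. Psmc1 was at 33 and 25 with 31.9% single-place windows. Ratios within the ATPase ring, whose subunits occur once each, therefore ran from 0.236 to 0.534 among the genes with at least 80% single-place windows.

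The other 19S subunits bind ubiquitin, cleave it off and hold the cap together. All 11 were lower as deposited, 5 of them at least 2-fold, with a median log2 ratio of -0.89, and 5 were lower and 6 higher under the high-level scaling. The 4 whose mean reached 100 had a median of -1.27, beside -1.08 for all genes of that level, and the 4 from 50 to under 100 had -0.94, beside -0.53. Psmd4, a ubiquitin receptor, was at 151 in WT and 56 in the deficient library (0.371), and Psmd14, the deubiquitinating subunit that releases chains from substrates, was at 132 and 55 (0.417). Psmd14 had 79.9% of its windows at a single place. Psmd6, a scaffold subunit of the lid, was at 203 and 65 (0.32). Psmd4 and Psmd14 thereby passed to below the olfactory percentile, and Psmd6 did not.

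Psmd1, the large scaffold of the base that carries ubiquitin receptors, was at 139 and 64 (0.46). Psmd8 was at 118 and 59 (0.5), Psmd7, the inactive partner of Psmd14, at 109 and 59 (0.541), and Psmd12, a lid scaffold, at 179 and 117 (0.654). All of these stayed above the percentile in both libraries. Psmd3, another lid scaffold, was at 79 and 48 (0.608), and Psmd13 was at 49 and 30 (0.612). Psmd2, the second large scaffold of the base, was at 31 and 22 with only 28.8% single-place windows, and Psmd11, which promotes assembly of the cap onto the core, at 44 and 43 with 67.3%. Hence the 2 subunits with the smallest values in WT were those with the least unique sequence in the group.

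The activators open the core without ubiquitin, and in this group 5 of 6 genes were lower as deposited, with a median log2 ratio of -0.74, but 2 were lower and 4 higher under the high-level scaling. Psme1, a subunit of the interferon-inducible PA28 ring of the cytoplasm, was at 315 in WT and 183 in the deficient library (0.581). Psme3, the nuclear PA28 subunit, was at 277 and 171 (0.617), and Psme4, the large activator PA200, was at 201 and 100 (0.498). All 3 stayed above the olfactory percentile in both libraries, and their median log2 ratio of -0.78 was nearer to 0 than the -1.08 of all genes with a mean of at least 100. The inhibitor Psmf1 was at 77 and 52 (0.675). Psme1 and Psme3 kept nearly 1 ratio to each other, the deficient library standing at 0.941 of the WT quotient. The partner of Psme1 in its ring, Psme2, had 39.3% of its windows at a single place.

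The assembly chaperones do not belong to the finished particle. Psmd5, Psmd9 and Psmd10 help to assemble the ATPase ring and Psmg1 to Psmg4 the alpha ring. All 7 were lower as deposited, with a median log2 ratio of -0.46, but only 3 of 7 under the high-level scaling, where the median was 0.54. The 5 with a mean under 50 had a median of -0.44 as deposited, beside 0.00 for all genes of that level. Psmd10 was at 112 in WT and 41 in the deficient library (0.366) and Psmd5 at 95 and 32 (0.337), whereas Psmd9 was at 49 and 47 (0.959). Against Psmd10 within the same library, Psmd9 was 2.62-fold higher in the deficient library, with 2.52 to 2.72 allowed by rounding, but its own values were under the olfactory percentile in both. Psmg1 was at 33 and 24, Psmg2 at 46 and 36, Psmg3 at 53 and 39 and Psmg4 at 34 and 17. None of the 4 exceeded the percentile, so the alpha-ring chaperones could not be separated from the background level.

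Psmc3ip, the row that is no proteasome gene, had the lowest ratio of all rows above 0 in both libraries, at 69 in WT and 10 in the deficient library (0.145). It shares 29.8% of its exon bases with Mlx on the opposite strand, which was at 90 and 71. Leaving Psmc3ip out gave 44 of 47 proteasome genes lower as deposited and left their median at -0.99.

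Genes that work with the proteasome but carry other symbols were counted in lists, which are to be read beside the 59.9% of all genes that were lower and the 17.4% that were at least 2-fold lower. Those shares were 95.2% and 56.8% for genes with a mean of at least 100, so a list of such genes that was lower throughout did not stand apart by its count. The uniqueness of sequence was not measured for the genes of these lists or of the marker lists. Their zeros and low values can therefore not be read as levels of their transcripts. The 19S subunit Shfm1 was at 182 in WT and 77 in the deficient library (0.423), and Adrm1, a ubiquitin receptor of the cap, was listed at 0 in both. All 8 assembly and interacting factors were lower as deposited, 3 at least 2-fold, with a median log2 ratio of -0.72, and 3 were lower under the high-level scaling. Pomp, the maturation factor that completes the core and is consumed in the process, was at 370 and 51. AI314180, the mouse symbol of the proteasome adaptor Ecm29, was at 86 and 69. Pomp thus had the largest difference of this list and AI314180 the smallest.

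Of the 12 ubiquitin shuttle and unfoldase genes, 10 were lower as deposited, 3 at least 2-fold, with a median of -0.74, and 3 were lower under the high-level scaling. Ubqln1, a shuttle that carries ubiquitinated proteins to the cap, was at 275 in WT and 65 in the deficient library, whereas its relative Ubqln2 was at 130 and 156. Nsfl1c, a cofactor of the unfoldase Vcp, was listed at 0 in WT and at 19 in the deficient library. All 5 ubiquitin and ubiquitin-activating genes with a value above 0 were lower as deposited, with a median of -0.65, and 2 were lower after that scaling. Ubb, a polyubiquitin gene, was at 94 and 20, and Rps27a, which encodes a ubiquitin fused to a ribosomal protein, was at 5 and listed at 0. Rps27a is counted among the 5, although it stayed under the olfactory percentile in both libraries.

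Transcription factors known to act on proteasome genes were lower in 7 of 8 cases as deposited, with a median log2 ratio of -0.46, and in 1 of 8 under the high-level scaling. Nfe2l1, which drives proteasome synthesis when proteasome activity drops, was at 97 in WT and 70 in the deficient library. Nfe2l2, its relative of the oxidative stress response, was at 153 and 124. Nfyb, a subunit of the factor that binds CCAAT boxes, was at 188 and 70, and Irf1, which induces immunoproteasome genes downstream of interferon, was at 55 and 95, the only factor of the list that was higher as deposited. The higher value of Irf1 thus stood beside lower deposited values of Psmb8, Psmb9, Psmb10 and Psme1.

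MHC class I peptide loading genes receive the peptides that the proteasome makes, and 6 of 8 were lower as deposited, with a median of -0.53, against 3 of 8 under the high-level scaling. Pdia3, a chaperone of the loading complex, was at 284 in WT and 80 in the deficient library. Tap2 was at 106 and 66 and Tapbp, which bridges the transporter to MHC class I, at 46 and 51. B2m, the light chain of MHC class I, was at 964 and 965. Psmb8 divided by B2m was 0.361 in WT and 0.143 in the deficient library, or 0.396 of the WT quotient. With B2m nearly equal, this restates the Psmb8 ratio of 0.397. Pdia3 (ratio 0.282) and Canx (413 and 145, ratio 0.351) had lower ratios than Psmb8, and the other genes of the list had higher ones. The direction of such a quotient thus depends on the partner gene.

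**Figure D4:**
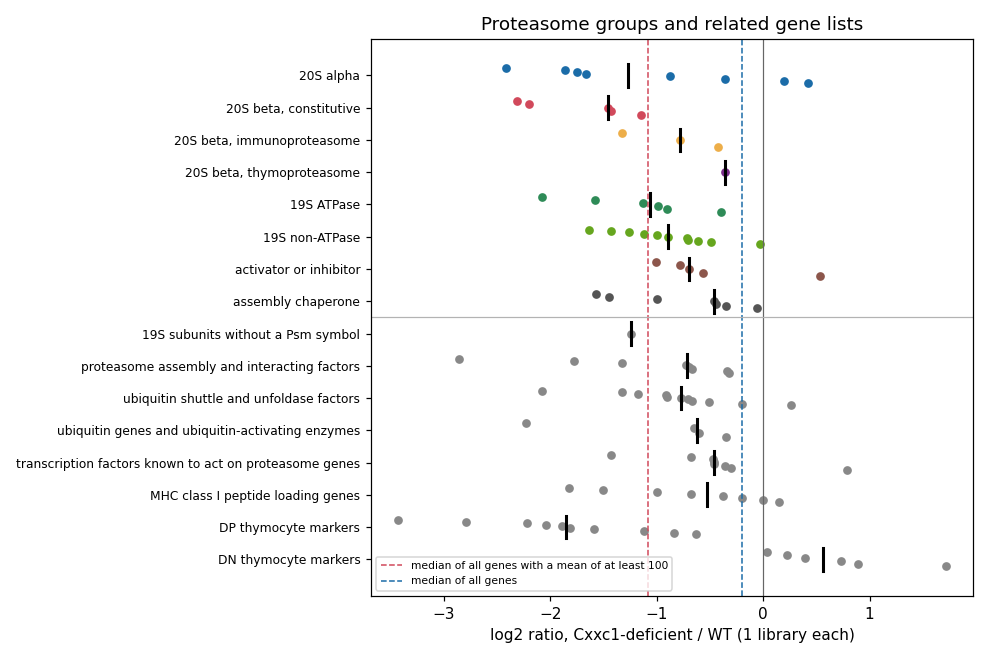
Each point is a gene above 0 in both libraries, placed by its log2 ratio of the Cxxc1-deficient over the WT value as deposited (horizontal axis), with proteasome groups above the grey line and related lists below it. Black bars are medians over the genes drawn, the dashed lines are the medians of all genes (-0.20) and of genes with a mean of at least 100 (-1.08), and the high-level scaling would multiply every ratio by 2.0 and so move all points to the right.

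Of the markers of other immune and blood cells, Itgam exceeded the olfactory percentile in both libraries and Cd79b in WT, and no other did. The 12 macrophage and dendritic cell markers summed to 390 in WT and 421 in the deficient library, with Itgam at 101 and 107 and Cd74 at 14 and 50. The 6 B cell markers summed to 198 and 141, with Cd79b at 74 and 43, and the 7 erythroid markers, of which 3 were at 0 in both, to 105 and 87. The immunoproteasome is abundant in dendritic cells and B cells, which a sort for CD4+CD8+ thymocytes would largely remove, and the part of such cells in the values of Psmb8, Psmb9 and Psmb10 was not tested.

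Cxxc1 binds unmethylated CpG, so the start sites of the members were described by their CpG content and by short motifs of factors that are known to act on such genes. RefSeq windows of GRCm38.p6, from 250 bases before to 50 bases after the annotated start, were found for 42 of the 50 members, as 45 promoters. They held a median of 19 CpG (quartiles 12 and 23, range 2 to 41), beside 7 over all 32851 promoters and 23 over 2509 promoters of other genes with a mean of at least 100. Psma7 had the most, 41, and Psmb10, Psmb11 and Psme2b had 3, 4 and 2. The median of the members thus lay above that of all promoters and below that of highly listed genes, a level that 14 of the 50 members reached.

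The ETS core CCGGAA occurred on either strand in 22 of 45 member promoters (48.9%), beside 14.9% of all promoters and 30.0% of those of genes with a mean of at least 100. For the CCAAT box (CCAAT) the shares were 33.3%, 37.4% and 35.4%. The NRF1 core GCATGCGC was in 6.7%, 2.7% and 5.6%, and the antioxidant response element TGACNNNGC, which Nfe2l1 and Nfe2l2 bind, in 13.3%, 12.4% and 15.0%. The interferon-type letters GAAANNGAA were in 15.6%, 8.6% and 6.7%, the GAS letters TTCNNNGAA in 6.7%, 8.3% and 6.4%, and TATAAA in 8.9%, 13.6% and 6.3%. The ETS core and the GAAANNGAA letters thus had larger shares among the members than in both backgrounds, and the NRF1 core by a smaller margin, which is a description of letters and not of binding. The GAAANNGAA letters were found in Psme1 but in none of the immunoproteasome genes Psmb8, Psmb9 and Psmb10.

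The 250 bases before the start are shown for 4 members that differ in role and in ratio, namely Psma2 (0.314), Psmc5 (0.236), Psmb6 (0.202) and Psmb8 (0.397). They are written 5′ to 3′ in the direction of transcription. Capitals mark matches on either strand to the motifs just named other than the TATA letters, and matches may overlap. The windows are chr13:14612992-14613241 (plus strand), chr11:106255935-106256184 (plus), chr11:70525107-70525356 (plus) and chr17:34197945-34198194 (plus) of GRCm38.p6.
Psma2: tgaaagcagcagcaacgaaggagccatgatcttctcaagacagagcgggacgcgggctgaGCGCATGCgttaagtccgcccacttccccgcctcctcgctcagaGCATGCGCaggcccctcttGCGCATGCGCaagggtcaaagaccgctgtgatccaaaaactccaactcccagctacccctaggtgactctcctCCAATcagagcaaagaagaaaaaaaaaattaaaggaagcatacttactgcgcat
Psmc5: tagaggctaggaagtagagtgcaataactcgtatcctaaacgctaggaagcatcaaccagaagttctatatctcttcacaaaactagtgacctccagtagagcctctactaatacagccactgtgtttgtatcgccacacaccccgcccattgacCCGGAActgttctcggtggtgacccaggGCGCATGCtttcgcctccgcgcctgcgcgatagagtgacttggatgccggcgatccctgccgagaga
Psmb6: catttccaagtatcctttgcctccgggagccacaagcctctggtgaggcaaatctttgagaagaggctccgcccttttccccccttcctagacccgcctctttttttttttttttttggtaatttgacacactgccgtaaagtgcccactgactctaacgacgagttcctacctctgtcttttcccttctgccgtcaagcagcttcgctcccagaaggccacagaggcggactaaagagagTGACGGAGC
Psmb8: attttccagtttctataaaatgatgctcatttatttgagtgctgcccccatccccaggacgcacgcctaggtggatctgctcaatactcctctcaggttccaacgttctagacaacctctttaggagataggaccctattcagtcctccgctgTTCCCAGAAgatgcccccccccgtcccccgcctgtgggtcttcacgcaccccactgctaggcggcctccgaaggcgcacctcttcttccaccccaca

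In Psma2, 4 overlapping or separate matches to the NRF1 core preceded a CCAAT box, and in Psmc5 an ETS core preceded 1 NRF1 match. In Psmb6 the capitals mark a match to the antioxidant response element at the end of the window, and in Psmb8 a GAS match. Psma2 also held an ETS core in the 50 bases after its start. The full windows, including the 50 bases after the start, held 19 CpG in Psma2, 19 in Psmc5, 15 in Psmb6 and 11 in Psmb8. Psma2 and Psmc5 thus shared the ETS and NRF1 letters, and Psmb6 and Psmb8, with the lowest and the highest ratio of the 4, held neither.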

How the data were processed

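DP thymocyte mRNA of 1 WT and 1 Cxxc1-deficient sample was sequenced by the authors on a HiSeq with 50-base reads, and uniquely mapped reads on mm9 were used. The submitters' processing notes name CASAVA 1.8.2, Bowtie 1.0.1 and Partek, without their roles. The deposited values are a score, an expression value per gene that the authors normalized and rounded to whole numbers. Its unit, the annotation and the strand setting are not given in the sources used here. Depth is therefore unknown, no counting interval was possible, and only the effect of rounding (0.5 either way) is given.

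Samples were grouped by their titles. Ratios were taken between values raised to at least 1, and shares count genes with a value above 0 in either library. A 2-fold difference was the threshold, and no test was run. Every row matching the rule was described by role, and from each related list the largest and smallest differences were named along with fixed genes. Further genes and the quotients within a library were chosen after their values were seen. Members and lists were chosen with earlier results of these data known.

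Exon windows of 50 bases (GENCODE vM1) were compared with NCBIM37, the build of mm9. Promoters came from RefSeq tables of GRCm38.p6. Python 3.11.15 with numpy 2.4.6, pandas 2.3.3, numba 0.67.0 and matplotlib 3.10.9 was used, and the code was tested on simulated data. Alternatives were 4 scalings, pseudocounts of 1 and 10, subtraction of the olfactory receptor median, a minimum mean of 50, thresholds of 1.5-fold and 3-fold, and restriction by unique sequence or without Psmc3ip. Some members of the related lists are not reported singly here. The paper's ChIP-seq data were not analysed here.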

Additional observations from a re-analysis of the deposited data

How the results depend on the processing

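Scaling the deficient library moved the middle log2 ratio of the whole table by 0.04 (equal medians), 0.39 (equal 75th percentiles), 0.56 (equal sums without the top 100 genes) and 1.0 (high-level scaling), and subtraction of the olfactory receptor median shifted it by -0.24. The number of members lower was 45, and 24 under the high-level scaling and 29 of the 29 members with a mean of at least 50. The number at least 2-fold lower was 24, and 12 with equal sums, 6 under the high-level scaling, 37 after subtraction and 11 at a 3-fold threshold. The number at least 2-fold higher was 0, and 1 with equal sums, 3 under the high-level scaling and 1 after subtraction. The median log2 ratio of members was -0.99, and -0.61 with equal 75th percentiles, -0.43 with equal sums, 0.00 under the high-level scaling, -0.81 with a pseudocount of 10, -1.80 after subtraction and -1.26 for a mean of at least 50. The median of members with a mean of at least 100, relative to all genes of that level, was -0.30, and -0.45 after subtraction and -0.35 with at least 80% single-place windows. The other settings tried moved none of these counts by more than 1.5 times. The scalings act on every gene of a library alike, and which one sets these libraries on a common footing was not tested. No paired analysis was possible because no genotype was sequenced more than once. Depth is unknown, so no difference of a low value could be set against counting error, and no replicate could be left out.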
